A study of Mus musculus with 8 samples.

Results

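The genes of glycolysis and of the response to low oxygen were followed in mouse embryonic stem (ES) cells and in 3 kinds of cells differentiated from them with the small molecule IDE2. The set was a list of 37 genes: hexose transporters, enzymes of the glycolytic pathway and of its control, lactate and pyruvate handling, the transcription factor subunit Hif1a, 2 of the prolyl hydroxylases that sense oxygen, and known targets of hypoxia inducible factor (HIF). Of these, 33 had a named probe (52 probes), and 30 (43 probes) had a probe detected (detection p under 0.05) on 2 or more of the 8 arrays. These 30 were tested among 9915 genes that met the same criterion, out of 16593 genes with a named probe. No named probe was found for Gpi1, Eno1, Ldhb and Ankrd37. Probes for Pfkfb3 and for the lactate carrier Slc16a1 were detected on 0 of 8 arrays and that for Bnip3, a mitophagy receptor, on 1 of 8, so those 3 genes were not tested.

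All cells were of the E14TG2a line, a feeder-independent mouse ES line, and each of the 4 groups held 2 Illumina BeadChip arrays. Undifferentiated cells (ES) grew in serum with LIF, the cytokine that maintains pluripotency. The group IDE2 received 1 uM IDE2, an inducer of definitive endoderm, for 11 days. The groups IDE2+FGF2 and IDE2+FGF10 were moved after 6 days of IDE2 to 500 ng/ml FGF2 or 25 ng/ml FGF10 for the last 5 days, so the doses of the 2 growth factors differed. Differentiation used another basal medium, with less serum, N2, B27, thioglycerol and ascorbic acid, and cells grown in it without IDE2 are not among the samples. Effects of IDE2, of time and of the medium therefore cannot be told apart. Whether the arrays of a group came from separate cultures is not given in the labels, so p-values refer to the spread between these arrays, and that spread may be technical. No label states an oxygen level, a glucose level or the cell density.

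Glycolysis splits glucose into pyruvate: hexokinase traps the sugar, phosphofructokinase commits it, aldolase and triosephosphate isomerase divide it, and the later enzymes harvest ATP before pyruvate is reduced to lactate or enters the mitochondrion. HIF is made of an oxygen-labile alpha subunit and a stable partner. When oxygen is present, prolyl hydroxylases of the Egln family mark the alpha subunit for destruction, so its activity is set mainly at the protein level, which arrays do not measure. Many glycolytic genes, and Vegfa, Adm, Car9 and Egln3, are textbook HIF targets, and pluripotent cells are known for high glycolytic flux.

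Each array detected 11609 to 13422 of 25697 probes, at a median signal of 117 to 175 and a median of 38 to 40 beads per probe. In ES 1.78% of genes, and in IDE2+FGF10 1.82%, were at least 2-fold apart between replicates, while IDE2 had 15.7% and IDE2+FGF2 10.3%. Among the 30 glycolysis and hypoxia genes there were 1 and 0 such genes in ES and IDE2+FGF10 and 3 in each of the others. The ES marker Pou5f1 was 36.6-fold lower in IDE2, 7.18-fold lower in IDE2+FGF2 and 27.8-fold lower in IDE2+FGF10 than in ES, while Acta2, smooth muscle actin, was 209-fold, 191-fold and 156-fold higher. The summed linear level of 9 of 9 ES cell markers was 74196 to 84991 in ES, 5929 to 6283 in IDE2, 12648 to 15497 in IDE2+FGF2 and 4645 to 4785 in IDE2+FGF10. For 7 of 7 mesenchyme markers it was 640 to 672, 46156 to 46521, 41901 to 50883 and 34120 to 36848. Of 7 definitive endoderm markers 4 were tested, with sums of 186 to 194, 553 to 578, 244 to 264 and 273 to 330, and Foxa2, Foxa1 and Cer1 were detected on 0 of 8 arrays. Cell composition moved with every comparison against ES, its part in the results below was not tested, and in bulk RNA fewer cells of a type and less RNA per cell cannot be told apart.

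The promoters are shown first because 9 of the genes were higher, and 2 lower, in all 3 comparisons with ES. The windows are RefSeq sequences of the 250 bases before the annotated start (build GRCm38.p6), in lower case, and capitals mark the core of the hypoxia response element, ACGTG or GCGTG, on either strand (CACGT or CACGC when read on the strand shown). Egln3 (chr12:54203875-54204124, minus strand), Ddit4 (chr10:59951771-59952020, minus strand), Adm (chr7:110627407-110627656, plus strand) and P4ha2 (chr11:54100674-54100923, plus strand) stand for the genes that were higher, and Pfkp (chr13:6648772-6649021, minus strand) and Car9 (chr4:43506776-43507025, plus strand) for those that were lower.
Egln3: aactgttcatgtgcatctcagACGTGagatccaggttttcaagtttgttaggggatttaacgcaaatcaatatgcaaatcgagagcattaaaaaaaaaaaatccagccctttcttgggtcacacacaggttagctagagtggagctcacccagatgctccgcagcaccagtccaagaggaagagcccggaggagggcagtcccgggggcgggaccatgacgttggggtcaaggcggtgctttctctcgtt
Ddit4: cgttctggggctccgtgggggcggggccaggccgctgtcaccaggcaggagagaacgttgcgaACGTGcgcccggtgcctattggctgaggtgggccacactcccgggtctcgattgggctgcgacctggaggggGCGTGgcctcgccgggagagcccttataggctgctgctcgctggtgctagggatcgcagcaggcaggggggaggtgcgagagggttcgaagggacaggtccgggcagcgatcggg
Adm: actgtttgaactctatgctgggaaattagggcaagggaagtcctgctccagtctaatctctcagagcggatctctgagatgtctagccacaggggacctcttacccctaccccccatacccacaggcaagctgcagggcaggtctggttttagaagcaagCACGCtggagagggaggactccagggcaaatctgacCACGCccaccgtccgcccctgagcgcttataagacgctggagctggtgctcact
P4ha2: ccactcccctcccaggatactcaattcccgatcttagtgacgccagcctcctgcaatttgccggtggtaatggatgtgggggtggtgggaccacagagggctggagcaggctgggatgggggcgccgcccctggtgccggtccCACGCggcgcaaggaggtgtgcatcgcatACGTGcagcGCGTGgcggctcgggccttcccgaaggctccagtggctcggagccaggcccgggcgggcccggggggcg
Pfkp: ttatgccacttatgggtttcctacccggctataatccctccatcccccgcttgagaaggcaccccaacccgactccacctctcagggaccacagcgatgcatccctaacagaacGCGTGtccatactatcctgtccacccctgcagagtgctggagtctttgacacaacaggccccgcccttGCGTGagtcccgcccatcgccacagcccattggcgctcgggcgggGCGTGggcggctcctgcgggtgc
Car9: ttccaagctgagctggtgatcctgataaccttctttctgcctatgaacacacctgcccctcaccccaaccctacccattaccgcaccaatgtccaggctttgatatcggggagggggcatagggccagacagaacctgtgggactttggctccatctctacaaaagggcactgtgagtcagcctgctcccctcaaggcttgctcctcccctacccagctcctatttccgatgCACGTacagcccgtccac
The core lies at -229 from the start in Egln3, at -187 and -115 in Ddit4, at -90 and -54 in Adm, and at -107, -78 and -69 in P4ha2. It lies at -136, -68 and -23 in Pfkp and at -18 in Car9. Windows were found for 35 of the 37 genes, not for Slc2a3 and Ndrg1, and 32 of the 35 (91.4%) held at least 1 core in a window. The same was true of 7 of 8 genes (87.5%) higher in all 3 comparisons, where Eno2 had no match and Vegfa had a match in 1 of its 2 windows, and of both genes that were lower. So short a motif is common: 41.5% of 27025 genes, and 60.5% of 8003 genes tested on the arrays, held it in at least 1 window. Genes of both directions carried it, and a match is a description of letters, not a binding site.

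**Figure D1:**
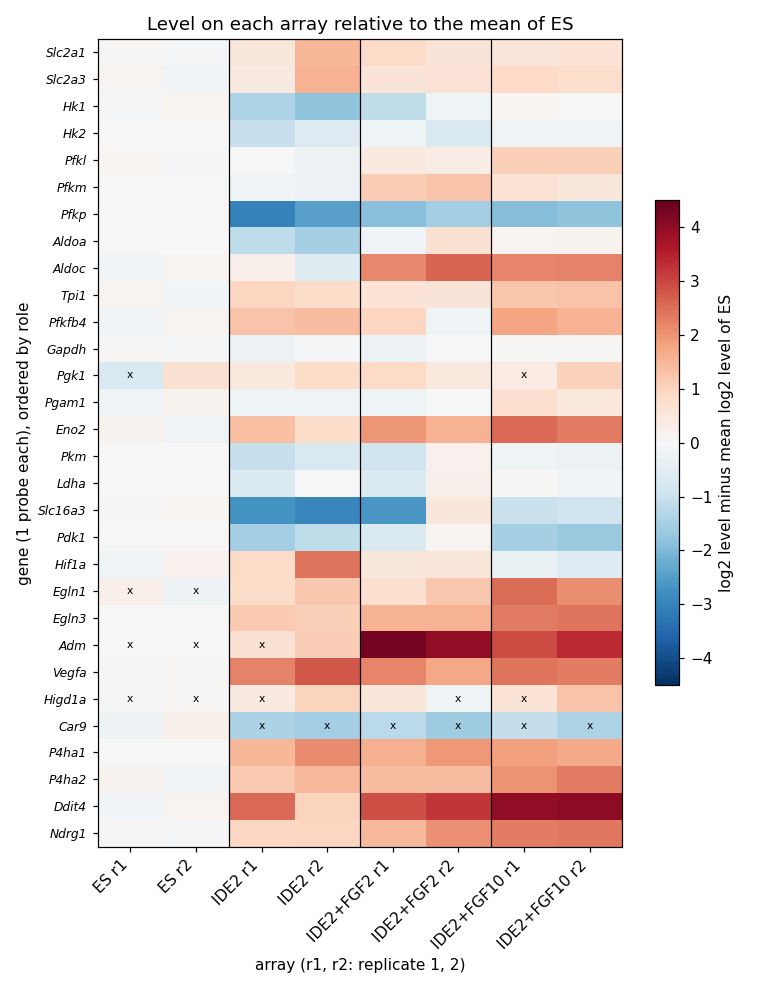
Log2 level of each of the 30 genes on each of the 8 arrays (columns, 2 per group) minus the mean log2 level of the 2 ES arrays; red is higher and blue lower, and x marks a probe not detected on that array. Vegfa, Egln3, P4ha1, P4ha2, Ddit4 and Ndrg1 are red on all 6 differentiated arrays, and Pfkp and Car9 are blue on all 6.

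Differentiated cells had higher levels of Vegfa, Adm, Egln3, P4ha1, P4ha2, Ddit4 and Ndrg1, lower levels of Car9, and changes in both directions among the glycolytic enzymes. Relative to ES, 14 of the 30 genes were higher and 7 lower in IDE2 (70% called; 45.3% of all genes tested). In IDE2+FGF2, 11 were higher and 2 lower, where 34.5% of all genes were called. In IDE2+FGF10, 13 were higher and 3 lower, against 45.1% of all genes. A gene was called when its adjusted p was under 0.05 in limma, a linear model with moderated variances fitted to all 9915 genes and 8 arrays, with the Benjamini-Hochberg adjustment. Without either ES array the count in IDE2 was smaller, among the 30 genes and among all genes. All single-gene p-values below come from the same model, and ± after a log2 change is its standard error. The model takes the spread of a gene as equal in all groups, although replicates lay further apart in IDE2 and IDE2+FGF2.

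The calls leaned to higher levels. In the 3 comparisons with ES, in the order above, higher calls made up 23.1%, 17.8% and 22.2% of all genes tested and lower calls 22.2%, 16.8% and 22.8%. The median log2 change of the 30 genes was 0.67, 0.57 and 0.77 in the 3 comparisons, while that of all genes was -0.01 in each. Without overlap between groups were 25, 20 and 26 of the 30 genes, beside 72.9%, 70% and 81.5% of all genes. With arrays scaled by their medians instead, the IDE2 calls were 11 higher and 8 lower, where 44.2% of all genes were called. The median of all genes in IDE2+FGF10 then moved to -0.22.

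On the list, 9 genes were called higher in all 3 comparisons, which share the ES arrays: Eno2, Egln1, Egln3, Adm, Vegfa, P4ha1, P4ha2, Ddit4 and Ndrg1. They were 30% of the 30 tested, and 11.7% of all genes had that pattern. Egln1 and Adm were not detected on either ES array, so they entered the test only through groups in which they were high. The list was chosen with earlier results of these data known, so this contrast is no independent support. Pfkp and Car9 were called lower in all 3 (6.67%, beside 11.8% of all genes). Gapdh, Pgk1, Pgam1, Pkm, Ldha and Higd1a were called in none of the 6 comparisons made (20%, beside 35.6%). No gene on the list was called in opposite directions against ES.

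**Figure D2:**
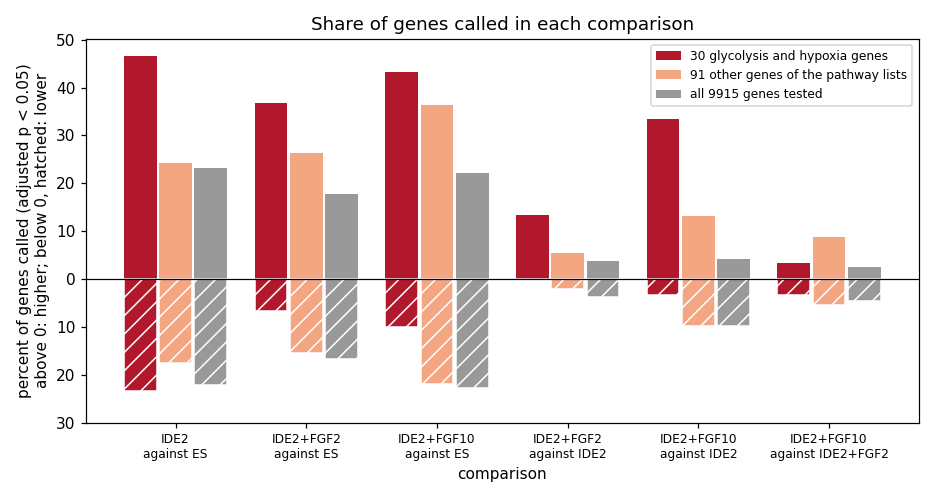
Percent of genes called at an adjusted p under 0.05 in each of the 6 comparisons, higher above 0 and lower (hatched) below it, for the 30 glycolysis and hypoxia genes, 91 other genes of the pathway lists and all 9915 genes tested. Of the 30 genes, 14 were called higher in IDE2 against ES and 10 in IDE2+FGF10 against IDE2.

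The 2 hexose transporters rose in IDE2. Slc2a1 (GLUT1, the transporter of most cells) was 2.02-fold higher than in ES (log2 change 1.01 ± 0.34, adjusted p = 0.032) and Slc2a3 (GLUT3, a high-affinity transporter) 1.98-fold (0.99 ± 0.36, adjusted p = 0.045). In IDE2+FGF2 the folds were 1.66 (adjusted p = 0.12) and 1.53 (0.22), and in IDE2+FGF10 they were 1.5 (0.19) and 1.79 (0.08), none of which passed. Over the 6 differentiated arrays the log2 level of Slc2a1 ran from 14.67 to 15.66 and that of Slc2a3 from 14.29 to 15.43, all above both ES arrays. IDE2 replicate 2 was the highest array for both. The Slc2a1 call was lost without ES replicate 1 (adjusted p = 0.11), ES replicate 2 (0.15), IDE2 replicate 2 (0.14) or either IDE2+FGF10 array (0.054). The Slc2a3 call was lost without the same 3 arrays (0.11, 0.21 and 0.22) or without any 1 of the 4 FGF arrays (0.068), and both calls were lost with median scaling (0.18 and 0.22).

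The hexokinases, which phosphorylate glucose, were lower in IDE2. Hk1, the constitutive form in most tissues, had log2 levels of 7.51 and 7.66 in ES, 6.18 and 5.77 in IDE2, 6.43 and 7.40 in IDE2+FGF2, and 7.65 and 7.57 in IDE2+FGF10. Both IDE2 arrays lay below all others, and the IDE2+FGF10 arrays lay at the ES level. Between IDE2 and ES, Hk1 differed 3.05-fold, with IDE2 lower (-1.61 ± 0.35, adjusted p = 0.0035), and the changes in IDE2+FGF2 (-0.67, adjusted p = 0.16) and IDE2+FGF10 (0.03, adjusted p = 0.95) did not pass. Hk2, the inducible form that HIF activates, was 1.76-fold lower in IDE2 (-0.82 ± 0.29, adjusted p = 0.041), and its change in the FGF groups was -0.41 and -0.16 (adjusted p = 0.31 and 0.69). That Hk2 call was lost without ES replicate 1 (adjusted p = 0.17), ES replicate 2 (0.14), IDE2 replicate 1 (0.11) or either IDE2+FGF10 array (0.077).

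The 3 phosphofructokinase genes moved apart. Pfkp, the platelet form, had log2 levels of 11.39 and 11.36 in ES, 8.33 and 8.95 in IDE2, 9.49 and 9.83 in IDE2+FGF2, and 9.44 and 9.58 in IDE2+FGF10. All 6 differentiated arrays lay well below ES, and the IDE2 arrays were the lowest. The falls were 6.66-fold in IDE2 (-2.74 ± 0.30, adjusted p = 5.8e-05), 3.29-fold in IDE2+FGF2 (adjusted p = 0.0015) and 3.64-fold in IDE2+FGF10 (adjusted p = 0.0006). Where a gene had several probes they were also compared, in a fit on all 14502 kept probes, which called 44.4%, 33% and 43.3% of them in the 3 comparisons with ES. A second Pfkp probe was called lower only in IDE2, with a log2 change of -1.27, and gave -0.47 and -0.54 in the FGF groups.

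Pfkm, the muscle form, had log2 levels of 10.89 and 10.85 in ES, 10.66 and 10.60 in IDE2, 12.01 and 12.14 in IDE2+FGF2, and 11.53 and 11.37 in IDE2+FGF10. The IDE2+FGF2 arrays were the highest and did not overlap with any group. Pfkm rose 2.30-fold in IDE2+FGF2 over ES (1.20 ± 0.26, adjusted p = 0.005), a call lost without ES replicate 2 (adjusted p = 0.052), and its 1.49-fold difference in IDE2+FGF10 did not pass (adjusted p = 0.093). Of 2 other Pfkm probes, 1 was called in IDE2+FGF2 against ES (0.90) and against IDE2 (1.61), and the other in IDE2+FGF10 against ES (2.04). Between differentiated groups the fit on all probes called 6.68% of probes in IDE2+FGF2 and 12.5% in IDE2+FGF10 when IDE2 was the reference, and 6.63% when the FGF groups were compared.

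Pfkl, the liver form, had log2 levels of 12.84 and 12.64 in ES, 12.71 and 12.50 in IDE2, 13.17 and 13.08 in IDE2+FGF2, and 13.81 and 13.82 in IDE2+FGF10. Levels in IDE2 overlapped with ES, and the IDE2+FGF10 arrays were the highest. The rise over ES was 2.12-fold in IDE2+FGF10 (1.08 ± 0.26, adjusted p = 0.0069), while a second probe gave 0.28, not called. It was no longer called without ES replicate 2 (adjusted p = 0.074), IDE2+FGF10 replicate 1 (0.056) or IDE2+FGF10 replicate 2 (0.059), nor with the probes of a gene averaged (0.077). Within each array, the log2 difference Pfkp minus Pfkl, set to a mean of 0 in ES, was -3.02 and -2.19 in IDE2, -2.32 and -1.89 in IDE2+FGF2, and -3.01 and -2.89 in IDE2+FGF10. By these probes the balance of the forms lay away from Pfkp on every differentiated array, and 2 arrays against 2 allow no exact test below 0.05. Its size depended on the probe. Second probes gave log2 changes against ES of -1.27, -0.47 and -0.54 for Pfkp and -0.72, 0.24 and 0.28 for Pfkl in the 3 groups.

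The aldolases, which cleave fructose bisphosphate, showed different patterns. Aldoa, the common form, had log2 levels of 14.17 and 14.21 in ES, 13.06 and 12.68 in IDE2, 14.06 and 14.86 in IDE2+FGF2, and 14.31 and 14.34 in IDE2+FGF10. Only the IDE2 arrays stood apart, 2.50-fold below ES (-1.32 ± 0.32, adjusted p = 0.0068). The FGF groups differed from ES by 0.27 and 0.13 on the log2 scale (adjusted p = 0.56 and 0.77).

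Aldoc, the form best known from brain, had log2 levels of 8.52 and 8.75 in ES, 8.85 and 8.10 in IDE2, 10.79 and 11.27 in IDE2+FGF2, and 10.82 and 10.87 in IDE2+FGF10. The 4 FGF arrays lay far above the 4 others. Aldoc rose 5.26-fold in IDE2+FGF2 (2.39 ± 0.32, adjusted p = 0.00032) and 4.63-fold in IDE2+FGF10 (2.21 ± 0.32, adjusted p = 0.00034) over ES, and its change in IDE2 was -0.16 (adjusted p = 0.71). The log2 difference Aldoc minus Aldoa, relative to ES, was 1.35 and 0.97 in IDE2, where Aldoa had fallen, and 1.96 to 2.29 on the 4 FGF arrays, where Aldoc had risen.

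Tpi1, triosephosphate isomerase, gave a result that depended on the probe. The probe with the highest mean had log2 levels of 14.30 and 14.03 in ES, 15.13 and 14.98 in IDE2, 14.78 and 14.76 in IDE2+FGF2, and 15.43 and 15.44 in IDE2+FGF10. By it Tpi1 was 1.85-fold higher in IDE2 (0.89 ± 0.26, adjusted p = 0.019) and 2.41-fold higher in IDE2+FGF10 (1.27 ± 0.26, adjusted p = 0.0028) than in ES. A second probe, with log2 levels of 8.99 and 9.23 in ES, 8.12 and 8.13 in IDE2, 8.05 and 8.39 in IDE2+FGF2, and 9.24 and 9.51 in IDE2+FGF10, was called lower in IDE2 (-0.98) and in IDE2+FGF2 (-0.89). That probe was also called higher in IDE2+FGF10 than in IDE2 (1.25, adjusted p = 0.02) and IDE2+FGF2 (1.16, adjusted p = 0.038), where the first probe was not. Another gave 0.17 in IDE2, not called, and 0.99 in IDE2+FGF10, called. With the probes averaged, the change in IDE2 was 0.03 (adjusted p = 0.94). The call in IDE2 was also lost without ES replicate 1 (adjusted p = 0.063) or ES replicate 2 (0.15) and with median scaling (0.29).

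Pfkfb4, which makes and breaks the allosteric activator of phosphofructokinase, was 2.52-fold higher in IDE2 (1.33 ± 0.37, adjusted p = 0.013) and 3.19-fold higher in IDE2+FGF10 (1.67 ± 0.37, adjusted p = 0.0038) than in ES. In IDE2+FGF2 its 2 arrays read 7.84 and 6.67, the second below ES, and the change of 0.38 did not pass (adjusted p = 0.47). A second Pfkfb4 probe gave -0.41 and -0.37 in IDE2 and IDE2+FGF10, and neither change was called. Leaving out ES replicate 1 (adjusted p = 0.089) or IDE2 replicate 2 (0.067) ended the IDE2 call, and averaging the probes ended both (0.23 and 0.098).

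The later enzymes of glycolysis showed no called change except for Eno2. By the probe used, Gapdh stayed between 15.50 and 15.83 on the log2 scale on all 8 arrays, with adjusted p-values of 0.62 to 0.96 over the 6 comparisons. A second Gapdh probe varied more, with log2 changes of -0.62, -0.25 and 0.04 against ES (adjusted p = 0.1, 0.54 and 0.94). It gave 0.66 in IDE2+FGF10 against IDE2 (adjusted p = 0.14) and was called in none of the 6 comparisons. Pgam1 (phosphoglycerate mutase) ran from 10.11 to 11.07, Pkm (pyruvate kinase) from 13.14 to 14.38 and Ldha (lactate dehydrogenase A) from 14.07 to 14.96. The smallest adjusted p of a comparison with ES was 0.088 for Pgam1, 0.071 for Pkm and 0.47 for Ldha. Pgk1, the phosphoglycerate kinase that yields the first ATP of the pathway, had a dim probe: it was not detected on ES replicate 1 and IDE2+FGF10 replicate 1, ran from 4.71 to 6.45, and had changes of 0.63, 0.67 and 0.70 over ES that did not pass (adjusted p = 0.27, 0.27 and 0.22).

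Eno2, the enolase known as the neuronal form, had log2 levels of 7.19 and 6.86 in ES, 8.37 and 7.86 in IDE2, 9.0 and 8.59 in IDE2+FGF2, and 9.56 and 9.36 in IDE2+FGF10. The groups did not overlap and ran in that order. Eno2 rose 2.13-fold in IDE2 (1.09 ± 0.30, adjusted p = 0.014), 3.41-fold in IDE2+FGF2 (1.77 ± 0.30, adjusted p = 0.0013) and 5.41-fold in IDE2+FGF10 (2.44 ± 0.30, adjusted p = 0.00012) over ES. Of 6 neural markers 3 were tested, with a summed level of 145 to 158 in ES, 1879 to 1966 in IDE2, 1143 to 1149 in IDE2+FGF2 and 1433 to 1493 in IDE2+FGF10, while Pax6, Tubb3 and Sox1 were detected on 0 of 8 arrays. The part of neural cells in the Eno2 result was not tested. Leaving out ES replicate 2 (adjusted p = 0.12) or IDE2 replicate 1 (0.051) ended the call in IDE2.

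Genes that direct pyruvate and lactate were lower or not called. Slc16a3 (MCT4, the carrier that exports lactate from glycolytic cells) had log2 levels of 8.33 and 8.49 in ES, 5.72 and 5.47 in IDE2, 5.80 and 8.92 in IDE2+FGF2, and 7.42 and 7.50 in IDE2+FGF10. The 2 IDE2+FGF2 arrays differed more than any 2 groups did: replicate 1 lay near IDE2 and replicate 2 above ES. Before normalization these arrays read 150 (standard error over beads 9.32, 36 beads) and 799 (35.2, 36 beads). Slc16a3 was 7.04-fold lower in IDE2 (-2.82 ± 0.73, adjusted p = 0.0094), a call lost without IDE2 replicate 1 (adjusted p = 0.055) or IDE2 replicate 2 (0.085). A second Slc16a3 probe gave -0.55 in that comparison and was not called (adjusted p = 0.16). The changes of -1.05 in IDE2+FGF2 and -0.95 in IDE2+FGF10 did not pass (adjusted p = 0.3 and 0.32).

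Pdk1, the kinase that shuts pyruvate dehydrogenase and so keeps pyruvate out of the mitochondrion, had log2 levels of 11.32 and 11.30 in ES, 9.79 and 10.15 in IDE2, 10.67 and 11.42 in IDE2+FGF2, and 9.83 and 9.63 in IDE2+FGF10. The IDE2 and IDE2+FGF10 arrays lay below all others, and the IDE2+FGF2 arrays spanned the ES level. Pdk1 fell 2.53-fold in IDE2 (-1.34 ± 0.32, adjusted p = 0.0059) and 3.0-fold in IDE2+FGF10 (-1.58 ± 0.32, adjusted p = 0.0022), and its change in IDE2+FGF2 was -0.27 (adjusted p = 0.56). It is a HIF target in textbooks. Vegfa, Egln3 and Ddit4 were called higher in every differentiated group, also in IDE2+FGF2, where Pdk1 was not called. The part of HIF in these changes was not tested.

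**Figure D3:**
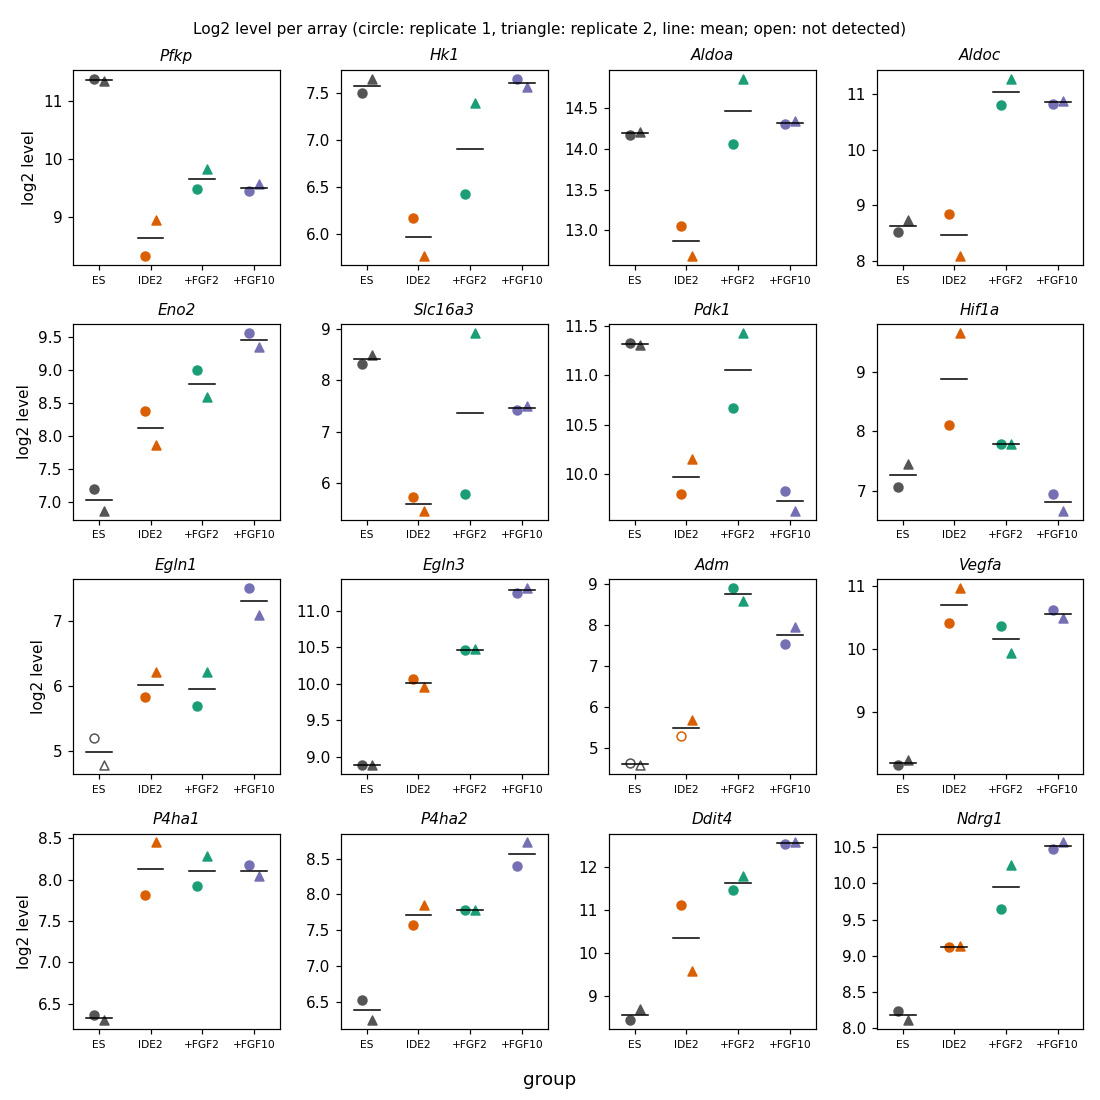
Log2 level on each array for 16 of the genes, by group; circles are replicate 1, triangles replicate 2, lines the mean of the 2 arrays and open symbols a probe not detected on that array. Vertical axes differ between panels and do not start at 0. Egln3, Eno2, Ddit4 and Ndrg1 have their highest arrays in IDE2+FGF10, Aldoc in the FGF groups, and Slc16a3 has 1 IDE2+FGF2 array near IDE2 and 1 above ES.

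The oxygen sensors rose in all 3 groups, and the mRNA of Hif1a, the subunit they control, rose in IDE2 alone among the comparisons with ES. Hif1a had log2 levels of 7.07 and 7.44 in ES, 8.10 and 9.65 in IDE2, 7.78 and 7.79 in IDE2+FGF2, and 6.95 and 6.66 in IDE2+FGF10. IDE2 held the highest 2 arrays but they lay far apart, and IDE2+FGF10 held the lowest. Hif1a was 3.07-fold higher in IDE2 than in ES (1.62 ± 0.43, adjusted p = 0.011), with changes of 0.53 in IDE2+FGF2 and -0.45 in IDE2+FGF10 that did not pass (adjusted p = 0.38 and 0.43). The IDE2 fold was 5.26 without IDE2 replicate 1 (adjusted p = 0.00078), 1.80 without IDE2 replicate 2 (0.048) and 2.70 without ES replicate 1, where the call was lost (0.082).

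Egln3 (PHD3), a prolyl hydroxylase that HIF itself induces, had log2 levels of 8.89 and 8.90 in ES, 10.06 and 9.96 in IDE2, 10.46 and 10.47 in IDE2+FGF2, and 11.24 and 11.31 in IDE2+FGF10. The groups did not overlap and their replicates lay close together. Egln3 rose 2.17-fold in IDE2 (1.12 ± 0.26, adjusted p = 0.0052), 2.98-fold in IDE2+FGF2 (1.57 ± 0.26, adjusted p = 0.00099) and 5.23-fold in IDE2+FGF10 (2.39 ± 0.26, adjusted p = 5.2e-05). These calls held with any 1 of the 8 arrays left out.

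Egln1 (PHD2), the main hydroxylase of HIF in most cells, was not detected on either ES array (4.77 and 5.20 on the log2 scale). It was detected on all 6 differentiated arrays, at 5.82 and 6.21 in IDE2, 5.69 and 6.21 in IDE2+FGF2, and 7.51 and 7.09 in IDE2+FGF10. Because ES gives only an upper limit, folds over it are lower bounds, set against the lowest signal of detected probes on the ES arrays. They were at least 1.30-fold in IDE2 (adjusted p = 0.023), 1.25-fold in IDE2+FGF2 (adjusted p = 0.037) and 3.17-fold in IDE2+FGF10 (adjusted p = 0.00023). As for every lower bound below, these p-values test the change in measured signal and not the bound. That log2 change was 1.03, 0.97 and 2.31. The IDE2 call was lost without ES replicate 1 (adjusted p = 0.052), ES replicate 2 (0.17) or IDE2 replicate 2 (0.098), and that in IDE2+FGF2 without ES replicate 1 (0.081), ES replicate 2 (0.25), IDE2+FGF2 replicate 2 (0.16) or either IDE2+FGF10 array (0.06). Of 2 other Egln1 probes, 1 was called in IDE2+FGF10 (1.57, adjusted p = 0.0055) and the other in none of the 3 comparisons. Both weaker calls were also lost without background correction (0.087 and 0.12) and with the probes averaged (0.12 and 0.13).

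Both secreted factors were higher in every differentiated group. Vegfa, the growth factor of blood vessels, had log2 levels of 8.15 and 8.23 in ES, 10.42 and 10.97 in IDE2, 10.37 and 9.93 in IDE2+FGF2, and 10.61 and 10.49 in IDE2+FGF10. All 6 differentiated arrays lay well above ES, and by this probe no difference between the differentiated groups was called. The rises were 5.69-fold (2.51 ± 0.30, adjusted p = 9.7e-05), 3.90-fold (adjusted p = 0.00067) and 5.14-fold (adjusted p = 0.00014). A second Vegfa probe was also called higher in the 3 comparisons, by 1.24, 0.92 and 2.28 on the log2 scale. Unlike the first, it was called higher in IDE2+FGF10 than in IDE2 (1.04, adjusted p = 0.045) and in IDE2+FGF2 (1.36, adjusted p = 0.026), so that comparison of the differentiated groups depended on the probe.

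Adm encodes adrenomedullin, a vasodilating peptide. Its probe was not detected on the ES arrays (4.64 and 4.59) or on IDE2 replicate 1 (5.31). It read 5.71 on IDE2 replicate 2, 8.92 and 8.61 in IDE2+FGF2, and 7.55 and 7.97 in IDE2+FGF10, so the 4 FGF arrays lay far above the rest. Adm was at least 8.75-fold higher in IDE2+FGF2 (adjusted p = 7.2e-06) and at least 4.36-fold higher in IDE2+FGF10 (adjusted p = 2.3e-05) than in ES. In IDE2 it was called higher (0.89 ± 0.29, adjusted p = 0.029), but the level lay so near the background that no fold can be given. That call was lost without ES replicate 1 (adjusted p = 0.12), ES replicate 2 (0.14) or IDE2 replicate 2 (0.094). Markers of endothelium and blood, another source of vascular genes, had 2 of 7 members tested, with a summed level of 427 to 473 in ES, 74.9 to 93.5 in IDE2, 611 to 677 in IDE2+FGF2 and 89.0 to 89.7 in IDE2+FGF10. Cdh5, Hbb-y, Hba-x and Gata1 were detected on 0 of 8 arrays, and the part of such cells in the Vegfa and Adm results was not tested.

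Car9, a carbonic anhydrase of the cell surface that buffers acid, went the other way. By the probe used it was detected on both ES arrays (6.27 and 6.74) and on none of the 6 differentiated arrays. Other Car9 probes were detected on no array, with mean log2 levels of 4.87 and 4.65 in ES. The probe used read 4.91 to 5.45 on the differentiated arrays, so Car9 entered the test only through the group in which it was high. It was at least 2.12-fold lower in IDE2 (adjusted p = 0.0024), 2.08-fold in IDE2+FGF2 (adjusted p = 0.0043) and 1.68-fold in IDE2+FGF10 (adjusted p = 0.0067). The call in IDE2+FGF2 was lost without ES replicate 2 (adjusted p = 0.063), and that in IDE2+FGF10 without ES replicate 2 (0.085) or IDE2+FGF10 replicate 2 (0.075). Higd1a, a mitochondrial protein of the hypoxia response, was detected on 3 arrays, 1 in each differentiated group, and no comparison passed (smallest adjusted p = 0.054, in IDE2+FGF10 against ES).

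P4ha1 and P4ha2, the catalytic subunits of the enzymes that hydroxylate proline in collagen, rose in all 3 groups. P4ha1 had log2 levels of 6.36 and 6.30 in ES, 7.82 and 8.45 in IDE2, 7.92 and 8.29 in IDE2+FGF2, and 8.17 and 8.04 in IDE2+FGF10. The differentiated groups overlapped with each other and not with ES. The folds over ES were 3.49, 3.42 and 3.43 (adjusted p = 0.00083, 0.0013 and 0.00086). P4ha2 was 2.50-fold (1.32 ± 0.28, adjusted p = 0.0032), 2.62-fold (adjusted p = 0.0033) and 4.5-fold (adjusted p = 0.00015) higher. Of the 7 mesenchyme markers, 4 of them collagens, 7, 6 and 7 were also called higher in the 3 groups, and their part in the P4ha1 and P4ha2 results was not tested.

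Ddit4 and Ndrg1, stress genes that hypoxia induces, rose in every group. Ddit4 (REDD1), an inhibitor of the growth kinase mTORC1, had log2 levels of 8.44 and 8.69 in ES, 11.11 and 9.58 in IDE2, 11.47 and 11.79 in IDE2+FGF2, and 12.55 and 12.58 in IDE2+FGF10. The groups did not overlap, and the IDE2 arrays lay far apart. The rises were 3.44-fold in IDE2 (1.78 ± 0.43, adjusted p = 0.0065), 8.41-fold in IDE2+FGF2 (3.07 ± 0.43, adjusted p = 0.00038) and 16.03-fold in IDE2+FGF10 (4.0 ± 0.43, adjusted p = 5.1e-05). The IDE2 fold was 2.02 without IDE2 replicate 1 (adjusted p = 0.017) and 5.85 without IDE2 replicate 2 (0.00085), and the call was lost without ES replicate 1 (0.05, before rounding not under the threshold).

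Ndrg1 (a differentiation and stress gene of the N-myc downstream regulated family) had log2 levels of 8.25 and 8.12 in ES, 9.12 and 9.14 in IDE2, 9.65 and 10.25 in IDE2+FGF2, and 10.47 and 10.56 in IDE2+FGF10. The groups did not overlap and ran in the same order as for Egln3 and Ddit4. Its rises were 1.93-fold (0.95 ± 0.29, adjusted p = 0.021), 3.41-fold (1.77 ± 0.29, adjusted p = 0.00099) and 5.04-fold (2.33 ± 0.29, adjusted p = 0.00012). A second probe gave 0.30, not called, in IDE2 and was called in the FGF groups (1.44 and 1.86). The IDE2 call was lost without ES replicate 1 (adjusted p = 0.086) or ES replicate 2 (0.13) and with the probes averaged (0.11).

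**Figure D4:**
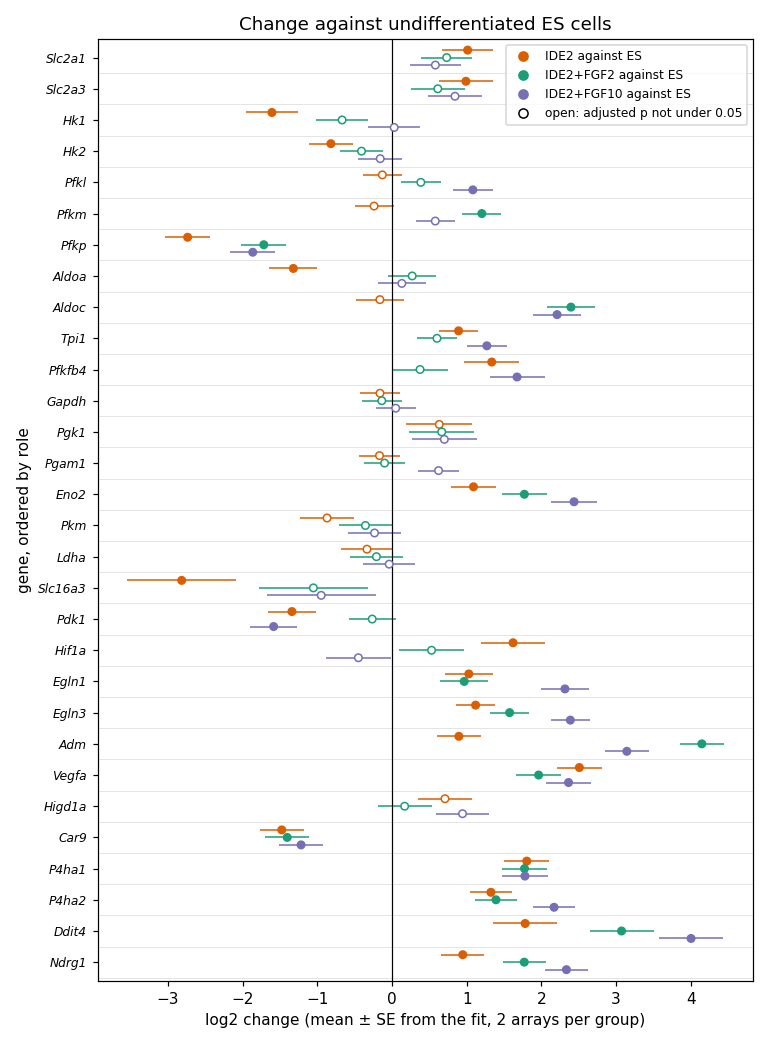
Log2 change of each of the 30 genes against ES, with its standard error from the limma model, in the 3 differentiated groups (2 arrays per group); filled symbols passed an adjusted p of 0.05. Adm lies at 4.15 in IDE2+FGF2, with an ES level below detection, Ddit4 lies at 4.0 in IDE2+FGF10 and 3.07 in IDE2+FGF2, and Pfkp lies at -2.74 in IDE2.

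The FGF groups were also set against cells kept in IDE2, which asks what changed when IDE2 was replaced by a growth factor for the last 5 days. No group lost IDE2 without receiving a growth factor, so the loss of IDE2 and the gain of FGF cannot be told apart. In IDE2+FGF2, 4 of the 30 genes were higher than in IDE2 and 0 lower by limma, where 7.5% of all genes were called (3.7% higher, 3.8% lower). An unadjusted p under 0.05 was reached by 13 of the 30. The share of all genes at that looser threshold was not computed, so this count cannot be set beside the 7.5%. Adm, which was detected on 1 of the 2 IDE2 arrays, was higher by 3.25 ± 0.29 on the log2 scale (adjusted p = 0.00025). Aldoc was 5.89-fold higher (2.56 ± 0.32, adjusted p = 0.0018), Aldoa 3.01-fold (1.59 ± 0.32, adjusted p = 0.019) and Pfkm 2.72-fold (1.44 ± 0.26, adjusted p = 0.011). ES cell markers differed too, with 5 of 9 called higher and 1 lower than in IDE2, and their part in these changes was not tested. In 17 of the 30 genes the groups did not overlap, beside 48.2% of all genes. The count of the 30 genes, like that of all genes, was larger without replicate 1 of either group and smaller without replicate 2. The Adm and Aldoc calls held with any 1 array left out. That of Aldoa was lost without IDE2 replicate 2 or IDE2+FGF2 replicate 2 (adjusted p = 0.11 each), and that of Pfkm without IDE2+FGF2 replicate 2 (0.062).

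In IDE2+FGF10, 10 genes were higher than in IDE2 and 1 lower, where 13.9% of all genes were called, 4.13% higher and 9.76% lower. Of the former, 4 were enzymes that had been lower or at the ES level in IDE2: Hk1 (3.11-fold, 1.64 ± 0.35, adjusted p = 0.016), Pfkl (2.32-fold, adjusted p = 0.017), Aldoa (2.74-fold, adjusted p = 0.018) and Aldoc (5.18-fold, 2.37 ± 0.32, adjusted p = 0.0077). The other 6 had been higher in IDE2 than in ES and were higher again: Adm (2.25 ± 0.29 on the log2 scale, detected on 1 of the 2 IDE2 arrays, adjusted p = 0.0069), Ddit4 (4.66-fold, 2.22 ± 0.43, adjusted p = 0.013), Ndrg1 (2.62-fold, adjusted p = 0.016), Eno2 (2.54-fold, adjusted p = 0.019), Egln1 (2.44-fold, adjusted p = 0.026) and Egln3 (2.41-fold, adjusted p = 0.014). The Egln1 call was not shared by its other probes (0.77 and 0.49, adjusted p = 0.18 and 0.52). Hif1a was 4.20-fold lower (-2.07 ± 0.43, adjusted p = 0.016). Of the 9 ES cell markers, 1 was called higher and 2 lower than in IDE2, and their part was not tested. In 22 of the 30 genes the groups did not overlap, beside 65.5% of all genes. Each of these 11 calls was lost without IDE2 replicate 2, IDE2+FGF10 replicate 1 or IDE2+FGF10 replicate 2. Nearly all calls among all genes were lost in those fits too, which left 1 array in a group. The folds changed by over 1.5 times for Hif1a, to 7.18 without IDE2 replicate 1 and 2.46 without IDE2 replicate 2, and for Ddit4, to 7.93 and 2.74.

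**Figure D5:**
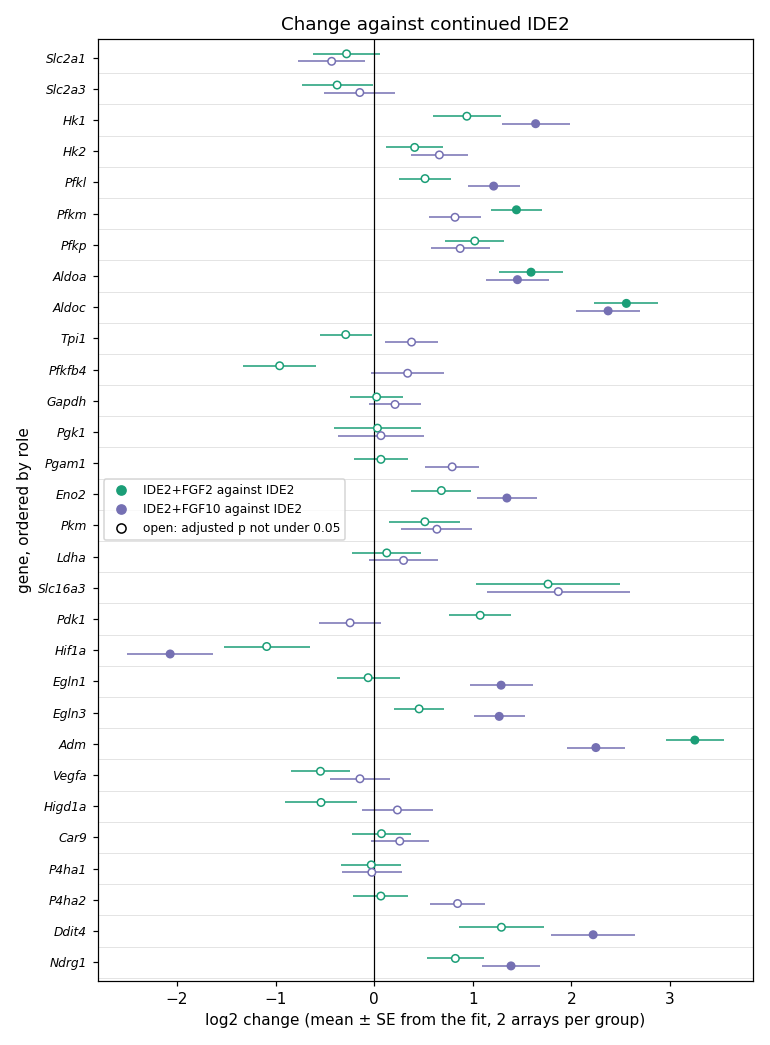
Log2 change of each of the 30 genes in IDE2+FGF2 and IDE2+FGF10 against IDE2, with its standard error from the limma model (2 arrays per group); filled symbols passed an adjusted p of 0.05. Adm and Aldoc are filled and right of 0 in both comparisons, and Hif1a is filled and left of 0 in IDE2+FGF10.

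Between the FGF groups, whose doses differed, 1 gene was higher and 1 lower in IDE2+FGF10, 6.67% of the 30. Of all genes 7.31% were called (2.6% higher, 4.71% lower), so the count of the 30 is at the background. Egln1 was 2.55-fold higher (1.35 ± 0.32, adjusted p = 0.032) and Pdk1 2.50-fold lower (-1.32 ± 0.32, adjusted p = 0.033). Other Egln1 probes gave 0.80 (adjusted p = 0.2) and 0.31 (0.73) here, neither called. Of the 9 ES cell markers 6 were called lower in IDE2+FGF10, and their part in the Pdk1 and Egln1 results was not tested. With median scaling the split was 0 higher and 2 lower, where 13.8% of all genes were called. The groups did not overlap in 20 of the 30 genes, beside 59.7% of all genes. Both calls were lost without either ES array (adjusted p = 0.062 for Egln1 and 0.074 for Pdk1), either IDE2+FGF10 array (0.13 to 0.26) or IDE2+FGF2 replicate 2 (0.073 and 0.14), and that of Egln1 without IDE2+FGF2 replicate 1 (0.087). The count of the 30 genes, like that of all genes, was larger without either IDE2 array or IDE2+FGF2 replicate 1. Adm was 2.01-fold lower in IDE2+FGF10 than in IDE2+FGF2, which did not pass (adjusted p = 0.064).

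The wider pathway was read from 134 other genes of glucose and lactate transport, glycogen, the pentose phosphate route, pyruvate entry, HIF machinery and further hypoxia targets, of which 91 were tested. Relative to ES, 22 rose and 16 fell in IDE2, 24 rose and 14 fell in IDE2+FGF2, and 33 rose and 20 fell in IDE2+FGF10. That was 41.8%, 41.8% and 58.2% of the 91, beside 45.3%, 34.5% and 45.1% of all genes. Their median log2 changes were 0.27, 0.32 and 0.36. Further hypoxia targets, 38 of 49 tested, rose in 12, 16 and 17 cases and fell in 6, 5 and 6 (47.4%, 55.3% and 60.5% called, the first near the share of all genes). The count in IDE2+FGF2 was smaller without ES replicate 1, among the 91 genes and among all genes.

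Among the largest rises were Vldlr, a lipoprotein receptor (at least 19.1-fold, 20.4-fold and 20.9-fold in the 3 groups), Flt1, a VEGF receptor (at least 14.9-fold in IDE2, at least 13.6-fold in IDE2+FGF2), and Gyg, glycogenin, the primer of glycogen (at least 16.4-fold in IDE2+FGF10). All 3 were not detected in ES, so they entered the test only through groups in which they were high. Their adjusted p-values were 7.2e-06 or less. The falls were led by Angptl4, a lipase inhibitor (13.0-fold, 11.0-fold and 11.5-fold), and Trf, transferrin (at least 8.64-fold in IDE2, 7.43-fold in IDE2+FGF2 and at least 6.85-fold in IDE2+FGF10). Their adjusted p-values were 7.1e-05 or less. Angptl4 is also a known HIF target and moved opposite to Vegfa, and the part of HIF in either change was not tested.

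Glycogen genes, 6 tested, had 3, 4 and 4 members higher than in ES and 0, 0 and 1 lower (50%, 66.7% and 83.3% called, beside 45.3%, 34.5% and 45.1% of all genes). Genes of pyruvate entry into the mitochondrion, 10 tested, were called lower in 2, 2 and 5 cases, with every call against ES in that direction, shares of 20%, 20% and 50% that lie below or near those of all genes. In IDE2+FGF10 the 5 were Dlat (3.84-fold) and Dld (3.11-fold), subunits of the pyruvate dehydrogenase complex, the kinase Pdk4 (2.51-fold), pyruvate carboxylase Pcx (2.35-fold) and the phosphatase Pdp1 (at least 1.67-fold). They were named after their values were seen. The Dld fold was 1.84 without IDE2+FGF10 replicate 1 (adjusted p = 0.21) and 5.27 without IDE2+FGF10 replicate 2 (0.0047), with the call also lost without ES replicate 1 (0.099) or ES replicate 2 (0.068). The Pdp1 call was lost without either ES array (0.099 and 0.14) or either IDE2+FGF10 array (0.057 and 0.21), and that of Pcx without ES replicate 2 (0.054) or IDE2+FGF10 replicate 2 (0.064).

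Against IDE2, 5 of the 91 genes rose and 2 fell in IDE2+FGF2, and 12 rose and 9 fell in IDE2+FGF10. These were 7.69% and 23.1% of the 91, beside 7.5% and 13.9% of all genes, so the first is at the background. The 7 calls in IDE2+FGF2 became more without replicate 1 of either group and fewer without replicate 2, as did those of all genes. In IDE2+FGF2, Arrdc4, an arrestin-like regulator of glucose uptake, was 4.25-fold higher (adjusted p = 0.002), a call that held with any array left out. Pdk4 was 3.18-fold higher (adjusted p = 0.0072), Eloc, elongin C of the complex that degrades HIF, 3.09-fold lower (0.019) and Tfrc, the transferrin receptor, 1.97-fold lower (0.045). The Pdk4 call was lost without IDE2+FGF2 replicate 2 (0.06), that of Eloc without IDE2 replicate 2 (0.079) or IDE2+FGF2 replicate 2 (0.1), and that of Tfrc without 6 of the 8 arrays, all but IDE2 replicate 1 and IDE2+FGF2 replicate 1 (0.1 to 0.13). In IDE2+FGF10, Hmox1, heme oxygenase, was 4.46-fold higher (adjusted p = 0.008) and Ppp1r3c, a scaffold of glycogen synthesis, 3.59-fold higher (0.0099). Eloc was 4.14-fold lower (0.0083) and Pdp1 at least 2.90-fold lower (0.011). As for the 30 genes, all 21 calls were lost without IDE2 replicate 2 or either IDE2+FGF10 array; those of the 4 genes named then had adjusted p-values of 0.053 to 0.1. In IDE2+FGF10 fewer genes were called without either ES array and more without IDE2 replicate 1, among the 91 and among all genes.

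Between the FGF groups, 8 of the 91 genes were higher and 5 lower in IDE2+FGF10 (14.3%, beside 7.31% of all genes). Ppp1r3c was 4.81-fold higher (adjusted p = 0.004) and Nrn1, a protein that promotes neurites, 4.46-fold higher (0.0029), and both calls held with any array left out. Pdp1 was at least 3.10-fold lower (adjusted p = 0.0085) and Angpt2, an angiopoietin, 3.53-fold lower (0.011). The call of Pdp1 was lost without IDE2+FGF2 replicate 2 (0.075), IDE2+FGF10 replicate 1 (0.052) or replicate 2 (0.11), and that of Angpt2 without the same arrays (0.056, 0.096 and 0.098). Fewer genes were called without either IDE2+FGF10 array or IDE2+FGF2 replicate 2, and more without either IDE2 array, among the 91 and among all genes.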

How the data were processed

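Total RNA of 8 samples was measured on Illumina BeadChips. A probe's deposited signal intensity is, per the file headers, averaged over its beads, without background subtraction or normalization, beside the deposited bead count and the deposited detection p-value. Per the submitters' processing notes, BeadStudio was used; its version is not given in the sources used here. The authors also deposited a processed table, whose intensities ranked the probes of every array alike (rank correlation 1), and whose method is not given in the sources used here; it served only as an alternative.

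The function neqc of limma 3.58.1 (R 4.3.3) estimated background from the detection p-values, added an offset of 16, quantile normalized the arrays and took log2. Of 25697 probes, 23978 named a gene here and 1719 did not; 14502 (13637 named) had a detection p under 0.05 on 2 arrays or more, and among these, each gene kept the probe with the highest mean. All 8 arrays entered lmFit and eBayes, each group with its own mean; the fit had 4 residual and 6.64 prior degrees of freedom and a prior SD of 0.324, and p-values were adjusted over 9915 genes by the Benjamini-Hochberg method. Several probes of a gene were compared in a fit on all 14502 kept probes. Where both arrays of a group missed a gene, the lowest signal of detected probes stood in for it in the fold, which is a lower bound. The p-value still came from the model on the measured signals. The model was run on simulated data in which the spread of a gene was equal in all groups. Such data cannot show how the model handles the unequal spread of the groups here.

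The genes and lists were chosen with earlier results of these data known. Genes were shown array by array when called and among the 2 largest rises or falls against ES, when called between differentiated groups, or when their probes were called in opposite directions. Other pathway genes were named when among the 2 largest called rises or falls of a comparison. Genes with patterns like those of Pgk1 and Egln3 were not listed, because the ES arrays lie apart from the others and a correlation over all 8 would rest on that split. The alternatives were other normalizations, filters, fits and probe rules, the second table, arrays left out, and the replicate number as a block. Promoter windows were RefSeq sequences (GRCm38.p6), searched by exact letters over 250 bases.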

Additional observations from a re-analysis of the deposited data

How the results depend on the processing

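Groups of 2 arrays limit every test, and genes near background have bounds only. Over 19 alternatives, the 67 called gene results kept their call and direction in 1126 instances, lost the call in 144 and were reversed in 0, and 34 kept it in all; of the 113 others, 47 gained a call in at least 1. The number of the 30 genes called ran, with 1 array left out, from 11 to 21 in IDE2 against ES (21 with all arrays), 10 to 16 in IDE2+FGF2 against ES (13), 14 to 20 in IDE2+FGF10 against ES (16), 2 to 10 in IDE2+FGF2 against IDE2 (4), 0 to 13 in IDE2+FGF10 against IDE2 (11) and 0 to 6 in IDE2+FGF10 against IDE2+FGF2 (2). When the second replicates of IDE2 and IDE2+FGF2 were left out together, it was 21 in IDE2+FGF2 against ES, 2 in IDE2+FGF2 against IDE2, 16 in IDE2+FGF10 against IDE2, 9 in IDE2+FGF10 against IDE2+FGF2 and 22 in IDE2+FGF10 against ES. The share of all genes called also moved in these fits, often but not always in the same direction. Each of these fits left 1 array in at least 1 group. The changes in number are therefore not particular to the 30 genes. With only the arrays of the groups compared, the number of the 30 genes called was 2 in IDE2+FGF2 against IDE2 (2.56% of all genes called) and 0 in IDE2+FGF10 against IDE2 (0 of all genes called). It was 0 in IDE2+FGF10 against IDE2+FGF2 (3.85%) and 22 in IDE2+FGF10 against ES (64%). At an unadjusted p under 0.05 in limma there were 16 and 13 in the comparisons with 0. The share of all genes at that looser threshold was not computed. Using only the arrays compared leaves fewer arrays to estimate the spread. It also does not pool the spread with groups whose replicates lay closer together or further apart. The main model gave each gene the same spread in all groups. Yet genes at least 2-fold apart between replicates were 1.78% in ES and 1.82% in IDE2+FGF10. They were 15.7% in IDE2 and 10.3% in IDE2+FGF2. The ± values and p-values of that model may therefore be too small for comparisons with IDE2 and too large for IDE2+FGF10 against ES. In IDE2+FGF10 against IDE2+FGF2 the number was 4 without background correction, 4 with the second table and 1 with the probes of a gene averaged. Of all genes, 6.25%, 6.26% and 6.94% were then called. Slc16a3, not called in that comparison (0.10), was called lower at -1.46 (adjusted p = 0.024) without IDE2+FGF2 replicate 1 and stood at 1.67 without IDE2+FGF2 replicate 2. For the remaining changes the cause was not tested. After normalization, samples with the same replicate number did not deviate together (correlations of -0.067 to 0.012), so the numbers were taken as names. Before it, replicate 2 had the higher median signal and more probes detected in every group. Those medians were 117 and 173 in ES, 130 and 162 in IDE2, 137 and 175 in IDE2+FGF2, and 130 and 133 in IDE2+FGF10. What the replicate numbers share is not given in the labels. With the replicate block the counts were 20, 13, 16, 4, 11 and 2, in the order given for all arrays. Of all genes, 44.4%, 33.9%, 44%, 6.43%, 13.4% and 6.71% were then called. Hk2 in IDE2 against ES lost its call with the block (adjusted p = 0.057).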
